A study of Mus musculus with 25 samples.

Results

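The replication-dependent histone genes were followed through 11 RNA-seq libraries of mouse embryos. Members were chosen by name: every row whose gene symbol begins with Hist1h, Hist2h, Hist3h or Hist4h, with each locus kept apart, and the family (H1, H2A, H2B, H3 or H4) read from the letters that follow. This gave 75 of the 24708 loci in the deposited tables, under 68 symbols. H1 had 6 loci, H2A 22, H2B 19, H3 14 and H4 14. The Hist1 cluster on chromosome 13 held 57 of them, the Hist2 cluster on chromosome 3 held 14, the Hist3 cluster on chromosome 11 held 3, and Hist4h4 stood alone on chromosome 6. 1 of the 75, Hist3h2bb-ps, is named as a pseudogene.

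All embryos were of the BDF1 strain. At the 2-cell stage, labelled embryonic day 1.5, 2 libraries were labelled WT, 2 IVF (in vitro fertilisation) and 2 sIVF, an abbreviation that the labels do not spell out. At the blastocyst stage, labelled embryonic day 4.0, 3 libraries were labelled Fzr1-OE and 2 Control, where Fzr1 encodes an activator of the anaphase-promoting complex and OE is read here as overexpression. Neither the means of overexpression, nor the number of embryos in a library, nor whether replicates came from separate collections is given in the sources used here, so the p-values measure the spread between these libraries, which may be technical.

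Histones package DNA into nucleosomes, with H2A, H2B, H3 and H4 in the core and the linker histone H1 where the DNA enters and leaves. The genes followed here lie in clusters of intronless copies that are transcribed in S phase to match DNA synthesis. Most of their mRNAs end in a conserved stem-loop instead of a poly(A) tail. The stem-loop is bound by Slbp, and the clusters are transcribed with the coactivator Npat. Replacement variants such as H2afz are encoded elsewhere, by polyadenylated mRNAs, and are used outside S phase. The labels name the molecule as polyA RNA, so the levels below are levels in such libraries, and how far they follow the total pool of histone mRNA was not tested.

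Many copies are near identical and share reads. For 7 symbols the tables list 2 loci each, 14 loci in all. Hist1h2ap overlaps both Hist1h2ao loci and was listed at no more than 7.94e-06 FPKM (fragments per kilobase of transcript, scaled to the mapped fragments of the library), while Hist1h2ao had the highest values of all 75. Hist2h2aa2 and Hist2h3c1 overlap Hist2h2aa1 and Hist2h3c2 in the same way and were listed near 0, save 1 Hist2h2aa2 locus at 1.59 FPKM in WT replicate 2. How reads were divided among such copies was set upstream, so family sums are given beside single loci.

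The proximal promoters show what the families share and where they part. RefSeq promoters on GRCm38.p6, 250 bases before to 50 after the start, were matched for 61 of the 68 symbols and gave 62 windows. The CCAAT box, on either strand, stood in 53 of the 62 (85.5%) against 37.4% of all 32851 promoters in the table. All 6 H1, 17 H2A, 17 H2B and 10 H3 windows held it, and 3 of the 12 H4 windows did. The letters TATAAA stood in 56.5% of histone windows against 13.6% of all. The octamer ATTTGCAT was found in 7 of 17 H2A and 7 of 17 H2B windows and in none of H1, H3 or H4, against 1.74% of all promoters. Windows of neighbouring H2A and H2B genes overlap: the 14 windows with the octamer are 11 separate stretches, as 3 pairs (Hist1h2aa and Hist1h2ba, Hist1h2ae and Hist1h2bg, Hist1h2ah and Hist1h2bk) share 220 to 279 bases, and 9 pairs overlap among all 34 H2A and H2B windows. The letters AAACACA, known from H1 promoters, stood in 5 of 6 H1 windows, 2 of 17 H2A and 2 of 17 H2B windows, against 7.18% of all. The letters of no motif contain those of another, and a match describes the sequence only.

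The 150 bases before the start are printed for the H2A genes that carried most of the summed histone FPKM and for 2 H2B genes. Both H2B genes were among those called higher in the libraries labelled Fzr1-OE. For 1 of them, Hist3h2ba, Control was listed at 0 and the call is no support for a direction. Hist1h2bc, the H2B gene of smallest p there, had no promoter window. Capitals mark the CCAAT box, the letters TATAAA and the octamer, each on either strand. Positions are GRCm38.p6: Hist1h2ao chr13:21810217-21810366 (plus strand, 1 window for a symbol that the expression tables place at 2 loci), Hist1h2ag chr13:22042950-22043099 (minus), Hist1h2ac chr13:23683960-23684109 (minus), Hist1h2bg chr13:23571250-23571399 (plus) and Hist3h2ba chr11:58948761-58948910 (plus).
Hist1h2ao: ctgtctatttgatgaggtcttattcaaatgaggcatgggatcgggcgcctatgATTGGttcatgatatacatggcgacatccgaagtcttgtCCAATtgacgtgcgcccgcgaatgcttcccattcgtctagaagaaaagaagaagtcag
Hist1h2ag: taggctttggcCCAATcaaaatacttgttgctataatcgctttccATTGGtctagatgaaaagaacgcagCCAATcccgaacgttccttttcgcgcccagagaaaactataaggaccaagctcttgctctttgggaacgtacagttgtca
Hist1h2ac: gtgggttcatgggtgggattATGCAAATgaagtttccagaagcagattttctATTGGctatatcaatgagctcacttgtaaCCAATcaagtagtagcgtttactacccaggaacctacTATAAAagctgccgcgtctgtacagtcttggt
Hist1h2bg: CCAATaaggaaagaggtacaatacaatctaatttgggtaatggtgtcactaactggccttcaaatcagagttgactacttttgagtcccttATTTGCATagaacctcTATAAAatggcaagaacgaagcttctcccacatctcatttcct
Hist3h2ba: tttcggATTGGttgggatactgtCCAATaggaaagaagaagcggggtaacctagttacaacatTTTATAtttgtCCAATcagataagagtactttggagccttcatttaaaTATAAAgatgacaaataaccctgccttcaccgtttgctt
Each of the 5 windows held the CCAAT box at least 1 time. The octamer stood in Hist1h2ac and Hist1h2bg, and TATAAA in Hist1h2ac, Hist1h2bg and Hist3h2ba.

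Libraries of the 2 stages differed in depth. From the confidence bounds deposited with each FPKM, the 2-cell libraries held about 4742698 to 6377606 fragments and the blastocyst libraries 9324167 to 10483442. The label check on Fzr1 did not separate the blastocyst groups: its level was 12.7, 15.5 and 17.1 FPKM under the label Fzr1-OE and 16.5 in each Control library, a log2 difference of -0.13 (SE 0.16, limma adjusted p = 0.713). Directions in that comparison therefore rest on the labels. Krt18, a keratin of the trophectoderm, stood at 2320 FPKM or more in every blastocyst library and at 1.25 FPKM or less in every 2-cell library, and Zscan4d, a 2-cell gene, at 3.27 FPKM or more in every 2-cell library and at 0 in every blastocyst library. The 7 sperm and spermatid markers summed to at most 4.58 FPKM and the 8 cumulus and granulosa markers to at most 3.92 FPKM in any library, and the feeder, blood and uterine markers to at most 7.43 FPKM.

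H2A made up most of the summed histone FPKM at both stages. In the 6 2-cell libraries H2A loci held 93.7% to 99.3% of the summed histone FPKM, and in the 5 blastocyst libraries 88.6% to 90.1%. The 2 Hist1h2ao loci alone held 82.8% to 88.4% at the 2-cell stage and 72.7% to 75.6% in blastocysts. Counted as fragments implied by the bounds, these shares were lower in blastocysts. H2A loci held about 6301 of 8472 implied histone fragments in Fzr1-OE replicate 1 and 5145 of 6620 in Control replicate 2. The 2 Hist1h2ao loci held about 1762 and 1840 of these in Fzr1-OE replicate 1, and 1629 and 1688 in Control replicate 2. As a share of all FPKM in a library, the 75 loci held 0.336% and 0.281% in WT, 0.298% and 0.418% in sIVF, 0.813% and 0.767% in IVF, 0.642% and 0.547% in Control and 0.838%, 0.864% and 0.835% in Fzr1-OE. In bulk libraries, a change in the number of cells carrying a transcript and a change in its amount per cell cannot be told apart.

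**Figure D1:**
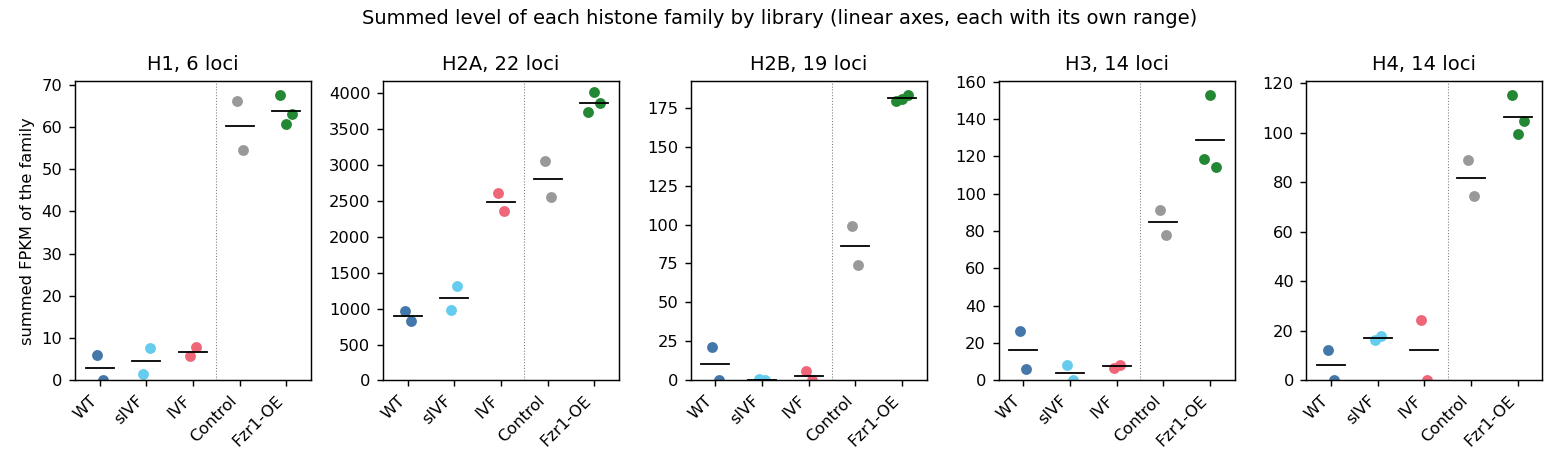
Summed FPKM of H1, H2A, H2B, H3 and H4 loci (vertical axes, linear, each panel with its own range) in each library (points) by group, with group means as bars; the dotted line parts 2-cell from blastocyst groups. H2A is the family whose sum is high at the 2-cell stage, at 831 to 2605 FPKM, and the other 4 families stay at or under 26.5 FPKM there.

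At the 2-cell stage the H2A sums were far above those of the other families. The H2A sum was 973 and 831 FPKM in WT, 974 and 1316 in sIVF and 2605 and 2355 in IVF. The H2B sum was 21.3 and 0.122 FPKM in WT, 0.833 and 0.0487 in sIVF and 5.75 and 0.0496 in IVF. Of the 75 loci, 13 were listed at 0 in all 6 2-cell libraries and 42 stayed under 1 FPKM in each. 19 were above 0 in all 6, and 18 of these 19 were H2A loci. The 19th, Hist2h2be, stood at 0.142 FPKM or less.

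The linker, H3 and H4 sums were low and uneven between replicates. H1 stood at 5.98 and 0 FPKM in WT, 1.48 and 7.59 in sIVF and 5.80 and 7.81 in IVF. The H1 signal came from Hist1h1a and Hist1h1b, and Hist1h1d, Hist1h1e and the testis linker histone Hist1h1t were at 0 in all 6 libraries. H3 stood at 26.5 and 6.16 FPKM in WT, 8.11 and 0 in sIVF and 6.78 and 8.42 in IVF. H4 stood at 12.2 and 0 FPKM in WT, 16.5 and 18.0 in sIVF and 24.3 and 0 in IVF. The groups overlapped in H3, and a library at 0 lay in WT and in IVF for H4, so no ratio is given for these families.

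In the heat map of every locus, the 2 Hist1h2ao loci, Hist1h2ag and Hist1h2ac are the only loci above 10 FPKM in all 11 libraries. Levels are compared per length, as FPKM, throughout. Averaged over the 6 2-cell libraries, the Hist1h2ao loci stood at 754 and 585 FPKM, Hist1h2ag at 99.1 and Hist1h2ac at 27.2. The next H2A loci, Hist1h2ai at 6.24 FPKM, Hist2h2aa1 at 6.16 (the locus at 96049420) and Hist2h2ac at 5.55, differed by less than the range of each over the 6 libraries.

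**Figure D2:**
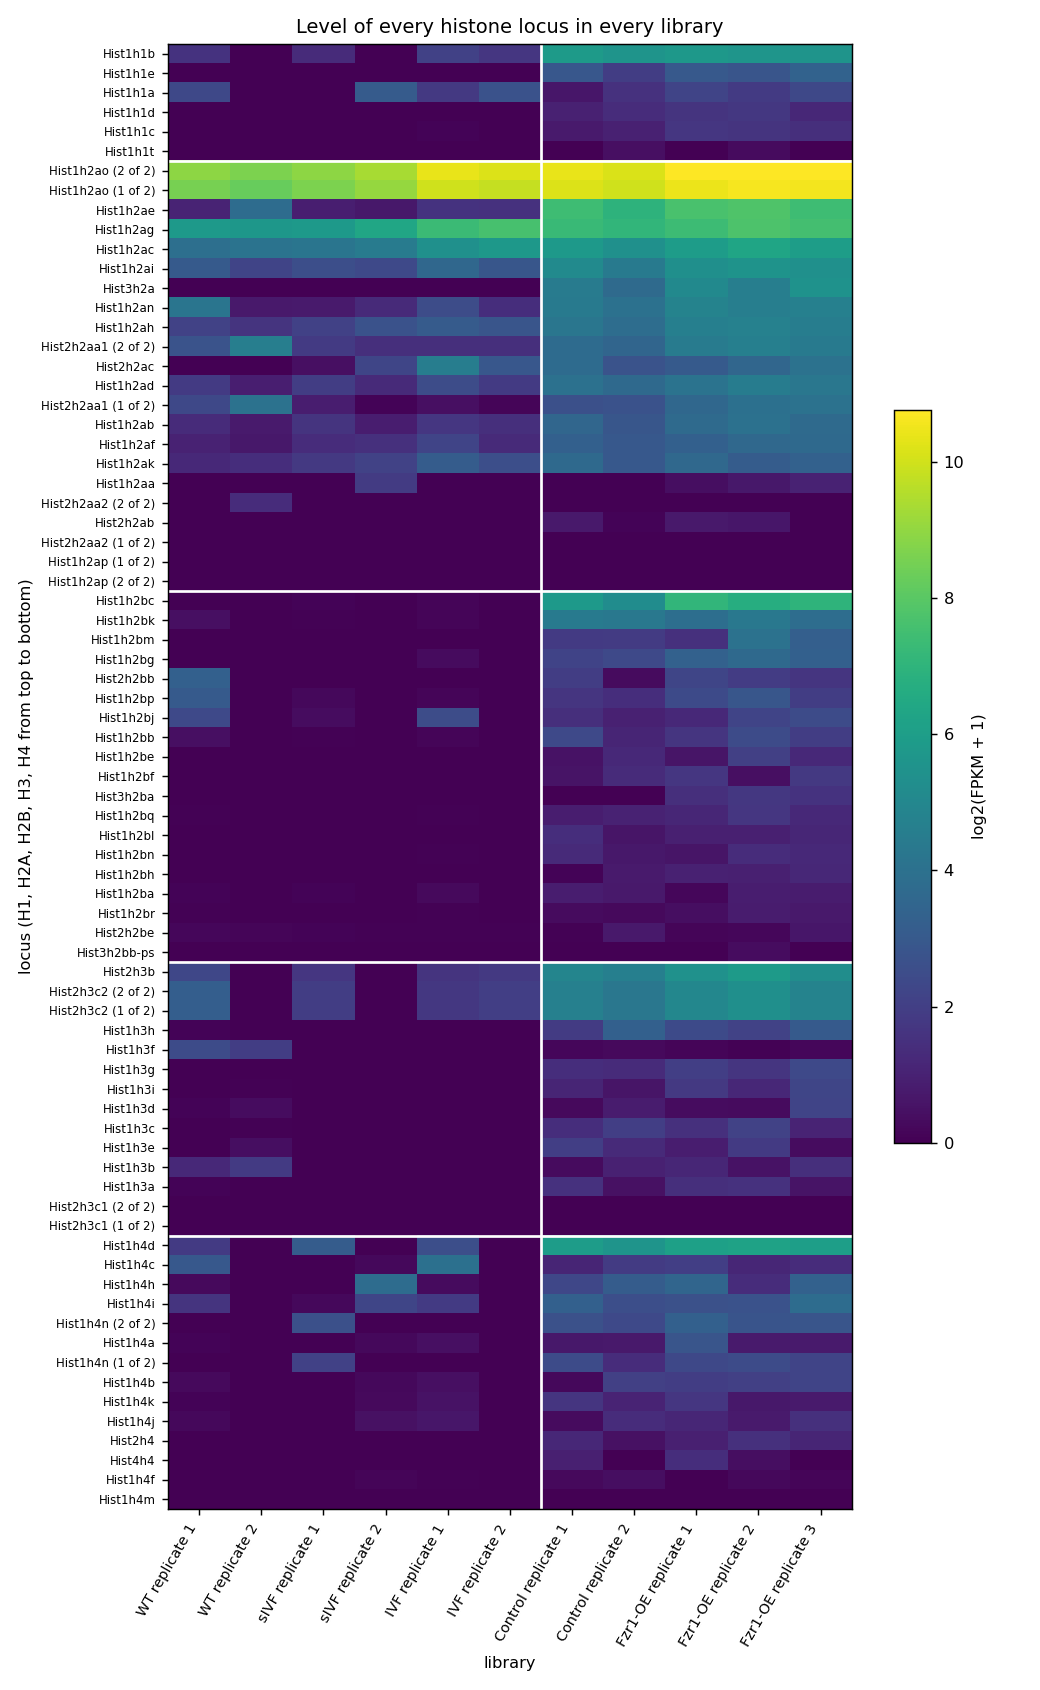
log2(FPKM + 1) of every histone locus (rows, by family from H1 at the top to H4 at the bottom, then by highest value) in every library (columns); white lines part the families and the stages, and loci sharing a symbol are numbered by position. Hist1h2ao is bright in all 11 libraries, and most H2B, H3 and H4 rows are dark at the 2-cell stage.

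The H2A sums of the IVF libraries lay above those of WT and sIVF, and 4 leading loci had similar ratios of IVF to WT. Hist1h2ao at 21924893 to 21925444 on chromosome 13 (mm9) stood at 481 and 401 FPKM in WT, 487 and 654 in sIVF and 1335 and 1165 in IVF. Hist1h2ao at 21902236 to 21902787 stood at 378 and 300.2 FPKM in WT, 392 and 532 in sIVF and 1002 and 906 in IVF. In both, each IVF library lay above each WT and each sIVF library. The log2 difference of IVF over WT was 1.50 (SE 0.18) and 1.50 (SE 0.20), and neither passed after Benjamini-Hochberg adjustment over 8246 loci (limma adjusted p = 0.0584 for both).

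Hist1h2ag (22134347 to 22134818) stood at 54.0 and 50.1 FPKM in WT, 55.9 and 80.8 in sIVF and 158 and 196 in IVF. Its log2 difference of IVF over WT was 1.74 (SE 0.26, limma adjusted p = 0.0767). Hist1h2ac (23775342 to 23775828) stood at 14.2 and 16.0 FPKM in WT, 17.3 and 21.5 in sIVF and 41.7 and 52.4 in IVF, a log2 difference of 1.57 (SE 0.33, limma adjusted p = 0.132). The 2 IVF values were the highest in both loci. These 4 loci share a cluster, and the 2 Hist1h2ao loci share reads, so they are not separate replicates of a difference.

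The H2A genes of the Hist2 cluster on chromosome 3 had values in opposite directions. Hist2h2ac (96024336 to 96024803) was listed at 0 in both WT libraries, at 0.372 and 3.77 FPKM in sIVF and at 22.6 and 6.57 in IVF, a log2 difference of IVF over WT of 3.74 on log2(FPKM + 1) (SE 0.86, limma adjusted p = 0.149). Hist2h2aa1 (96043702 to 96044257) stood at 4.09 and 15.5 FPKM in WT, 0.793 and 0.0734 in sIVF and 0.338 and 0.0980 in IVF, a log2 difference of IVF over WT of -2.92 (SE 0.80, limma adjusted p = 0.195). Both WT libraries lay above all 4 others. Hist2h2ac, at 0 in WT, reached the filter on low values only through other groups and could only come out higher. Hist2h2aa1 at 96043702 reached it through WT and could only come out lower. These 2 directions were set by the filter, so the contrast between the 2 loci is no support for a difference. The H3 gene Hist1h3f (23635921 to 23636823) stood at 4.52 and 2.88 FPKM in WT and at 0 in all sIVF and IVF libraries, with limma adjusted p = 0.298 for IVF over WT.

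Of the histone loci, 28 averaged 1 FPKM or more over the 6 libraries and were tested. None of them passed in IVF against WT (0 of 28, by limma at an adjusted p under 0.05), where 0.0121% of the 8246 loci tested passed as higher and 0% as lower. At an unadjusted p under 0.05 there were 6 higher and 3 lower, against 6.86% and 5.55% of all loci. Of the 21 histone loci averaging 1 FPKM or more in both groups, a split chosen after seeing the data, 5 were higher and 1 lower. Of all 6915 such loci, 6.10% were higher and 5.86% lower. The groups did not overlap in 10 of the 28 loci as higher and 3 as lower, against 22.8% and 19.3% of all loci tested. Of the 10, 9 were H2A loci and 1 was Hist1h1b. The median log2 difference was 0.51 over the 28 loci and 0.09 over all 8246. It was 1.31 without WT replicate 1 and -0.03 without WT replicate 2, so its direction turned on 1 library. By family, it was 0.88 over 15 H2A loci, and the summed H2A FPKM was 2480 ± 177 (SD, n = 2) in IVF against 902 ± 100.3 (SD, n = 2) in WT, a ratio of 2.75. The sums of other lists differed between the same groups. The 2-cell markers summed to 66.5 to 87.0 FPKM in IVF and 123 to 156 in WT. The 9 oocyte markers summed to 141 to 190 against 98.7 to 125, and 10 genes used by every cell to 1053 to 1169 against 1679 to 1732. Of the 9 genes used by every cell that were tested, 1 was higher and 4 lower without overlap, against 22.8% and 19.3% of all loci. Their median log2 difference was 0.16, against 0.09 over all loci, so the lower sum was not shared by most of them. Of the 10 2-cell markers tested, 7 were lower in IVF without overlap, against the 19.3% of all loci. The part of these lists in the H2A values was not tested.

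A stricter filter and another scaling changed the IVF call. With a filter of 5 FPKM, both Hist1h2ao loci (limma adjusted p = 0.0306) and Hist1h2ag (0.0482) passed as higher, and they also passed with upper-quartile scaling (0.0421, 0.0469 and 0.0469). Of all loci tested, 0.259% passed as higher with that filter and 0.206% with that scaling. Upper-quartile scaling moved the median of all loci from 0.09 to 0.24, and the direction of the 3 loci held under it and under quantile normalization. Over all alternatives, the adjusted p of these 3 loci ran from 0.0306 to 0.513. Of the 28 histone loci, 27 lay in the shortest of 10 classes of implied transcript length, where the median log2 difference without them was 0.19, against 0.01 in the longest class. With each library's length trend removed, no histone locus passed.

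At each of the 4 leading H2A loci both sIVF libraries lay above both WT libraries and below both IVF libraries. The H2A sum was 1145 ± 242 FPKM (SD, n = 2) in sIVF and 902 ± 100.3 in WT, a ratio of 1.27. None of the 28 loci passed in sIVF against WT by limma, and 0% of the 8246 loci tested did. At an unadjusted p under 0.05 there were 3, against 7.09% of all loci, and all 3 (both Hist2h2aa1 loci and Hist1h3f) had lower values in sIVF. Hist1h3f and Hist2h2aa1 at 96043702 averaged under 1 FPKM in sIVF and in IVF, so in both comparisons with WT they reached the filter through WT and could only come out lower. The median log2 difference was 0.02 over the 28 loci and 0.06 over all loci, and it ran from -0.52 to 0.63 when 1 library was left out. The log2 difference of sIVF over WT was 0.36 (SE 0.18, limma adjusted p = 0.741) and 0.44 (SE 0.20, limma adjusted p = 0.724) for the 2 Hist1h2ao loci. Groups did not overlap in 7 loci as higher, all of them H2A, and 4 as lower, against 20.6% and 15.3% of all.

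Set against IVF, sIVF had lower values at the same 4 leading H2A loci. The log2 difference of sIVF over IVF was -1.14 (SE 0.18, limma adjusted p = 0.0653) and -1.06 (SE 0.20, 0.109) for the Hist1h2ao loci, -1.37 (SE 0.26, 0.117) for Hist1h2ag and -1.23 (SE 0.33, 0.225) for Hist1h2ac. None of the 28 loci passed, and 0% of all 8246 did. 5 of the 28 had an unadjusted p under 0.05, all with lower values in sIVF, against 11.8% of all loci in either direction. Groups did not overlap in 11 loci as lower and 0 as higher, against 21% and 21.7% of all. With a filter of 5 FPKM, Hist1h2ao at 21924893 passed as lower in sIVF (limma adjusted p = 0.0385), against 0.173% of all loci, and over the alternatives its adjusted p ran to 0.489. The comparisons of IVF with WT and of sIVF with IVF share the IVF libraries, so these values are not independent of those above.

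**Figure D3:**
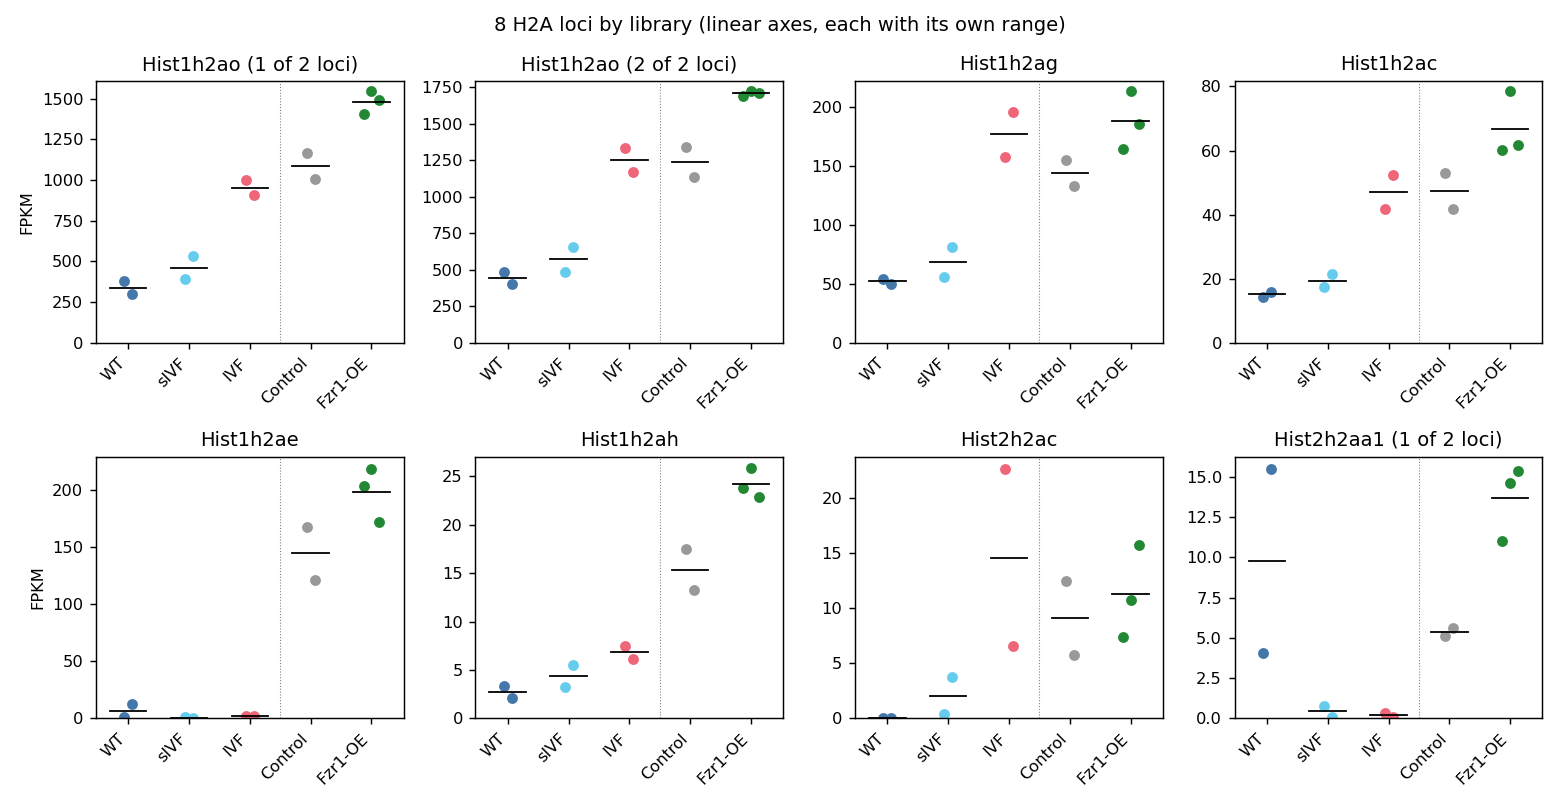
FPKM (vertical axes, linear, each panel with its own range) of 8 H2A loci in each library (points) by group, with group means as bars; loci sharing a symbol are numbered by position, and the dotted line parts the stages. For Hist1h2ao, Hist1h2ag and Hist1h2ac the IVF values lie near those of Control blastocysts; Hist1h2ae reaches 121 to 218 FPKM in blastocysts alone, and Hist2h2aa1 stands at 4.09 and 15.5 FPKM in WT and under 1 FPKM in sIVF and IVF.

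In blastocysts all 5 families were present. Of the 75 loci, 68 were above 0 in all 5 libraries, and in 37 every blastocyst library lay above every 2-cell library, against 21.3% of all 24708 loci. The reverse held for 3 loci, against 7.2% of all, and all 3 were Hist1h2ap and Hist2h2aa2 copies listed below 0.001 FPKM in every blastocyst library. The share of 21.3% also counts loci at 0 in blastocysts, which cannot lie above a 2-cell library. Of the 24708 loci, 13658 to 13947 were above 0 in each blastocyst library, and of the 75 histone loci, 71 to 75. The histone loci are therefore set against a background with more silent loci. By family, the blastocysts were separate from the 2-cell libraries in 4 of 6 H1 loci, 8 of 22 H2A, 12 of 19 H2B, 8 of 14 H3 and 5 of 14 H4.

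Outside H2A, the same locus had the highest value of its family in all 5 blastocyst libraries. In H1 it was Hist1h1b (21871701 to 21872494), at 57.4 and 46.7 FPKM in Control and 52.6, 47.4 and 46.7 in Fzr1-OE. In H2B it was Hist1h2bc (23776068 to 23784349), at 56.1 and 37.1 FPKM in Control and at most 0.0919 FPKM in any 2-cell library. In H3 it was Hist2h3b (chromosome 3, 96072577 to 96073078), at 28.9 and 23.7 FPKM in Control, beside the 2 Hist2h3c2 loci, which share reads, at 25.0 to 25.1 and 18.3 each. In H4 it was Hist1h4d (23673471 to 23673838), at 59.7 and 46.1 FPKM in Control. Hist1h4d held 64.6% of the summed H4 FPKM in Control and Hist1h1b 86.4% of the H1 sum.

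Control blastocysts were set against 2-cell WT embryos in a fit over all 11 libraries. Of the 39 histone loci tested, 28 passed as higher (limma, adjusted p under 0.05) and 0 as lower, where 45.8% of the 9762 loci tested passed as higher and 19.6% as lower. The 28 were 2 of 3 H1 loci, 13 of 16 H2A, 5 of 8 H2B, 5 of 5 H3 and 3 of 7 H4. A locus at 0 in WT passes the filter on low values only through other groups, so these shares describe the loci tested and not all 75. Of the 28 calls, 8 were on loci at 0 in both WT libraries and 13 on loci averaging under 1 FPKM in WT. Of the 24 loci averaging 1 FPKM or more in both groups, a split chosen after seeing the data, 15 passed as higher and 0 as lower, against 39.2% and 19.7% of the 6435 such loci of all. The median log2 difference was 2.14 over the 39 loci and 0.88 over all loci. Stage and everything else that parts the 2 sets of libraries, such as depth and day of preparation, cannot be told apart.

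Hist1h2bc rose by a log2 difference of 5.54 (SE 0.28, limma adjusted p = 7.06e-07), from 0 in both WT libraries. Hist1h2bk rose by 4.13 (SE 0.28, limma adjusted p = 3.57e-06), from 0.341 and 0 FPKM to 19.8 and 18.8, and Hist3h2a by 4.10 (SE 0.36, 1.51e-05), from 0 and 0 to 21.2 and 12.2. The linker gene Hist1h1b rose by 4.93 (SE 0.55, limma adjusted p = 6.63e-05), from 2.02 and 0 FPKM. These 4 values are on log2(FPKM + 1) and depend on that pseudocount, as WT had libraries at 0. Hist1h2bc, Hist1h2bk and Hist3h2a averaged under 1 FPKM in WT and reached the filter on low values only through the blastocysts. They could only come out higher, so their calls are no support for a direction. Over the alternatives Hist1h2bc ran from 4.26 to 8.84 and Hist1h1b from 3.44 to 6.82. Hist1h2ae rose by 4.74 (SE 0.69, limma adjusted p = 0.000324), from 1.09 and 12.7 FPKM to 168 and 121, and by 3.39 to 6.10 when 1 library was left out. The loci that were already high rose by smaller fitted values: the Hist1h2ao loci by 1.68 (SE 0.16) and 1.49 (SE 0.15), Hist1h2ac by 1.58 (SE 0.23) and Hist1h2ag by 1.45 (SE 0.21). These values lie near the median of 1.41 for other genes of the shortest class of transcript length. Over the alternatives they went as low as 0.48 and 0.33 for the Hist1h2ao loci, 0.23 for Hist1h2ac and 0.11 for Hist1h2ag.

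The number of stage calls moved with the scaling. Quantile normalization took the median of all loci from 0.88 to -0.02 and left 22 of 39 histone loci higher and 0 lower, with a median of 1.29, where 29% of all loci passed as higher and 31.1% as lower. With each library's trend in transcript length removed, 14 of 39 passed as higher, near the 27.9% of all loci, and 2, both Hist2h2aa1, as lower, against 28.4%. Under the main scaling the median log2 difference was 1.41 for other genes of the shortest class and -0.40 for the longest.

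H2A and H2B genes often sit head to head. 15 pairs of H2A and H2B loci lie 167 to 305 bases apart, 2 of them with Hist1h2ap. By the RefSeq strands of their symbols, 8 of the 15 were divergent. The pairs with Hist1h2ao did not come out divergent when these strands were set on the mm9 positions. On GRCm38.p6, however, the windows of Hist1h2ao (plus) and Hist1h2bq (minus) overlap, with the genes head to head. The remaining pairs lacked a matched promoter for a member, so their orientation is not known here. The H2A member had the higher FPKM in all 6 2-cell libraries in 10 pairs and in all 5 blastocyst libraries in 10 pairs. Hist1h2ag and Hist1h2bj, 280 bases apart and divergent, stood at 170 and 2.42 FPKM on average in blastocysts. Hist1h2ae and Hist1h2bg, 179 bases apart and divergent, stood at 177 and 7.53. The pair of Hist1h2ac and Hist1h2bc, 239 bases apart, changed order: 27.2 and 0.0276 FPKM on average at the 2-cell stage, 59.0 and 91.6 in blastocysts. In the Control libraries these 2 lay close, at 53.0 and 56.1 FPKM in replicate 1 and 41.7 and 37.1 in replicate 2. Hist1h2ah and Hist1h2bk came close together in blastocysts, at 20.6 and 16.8 FPKM.

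**Figure D4:**
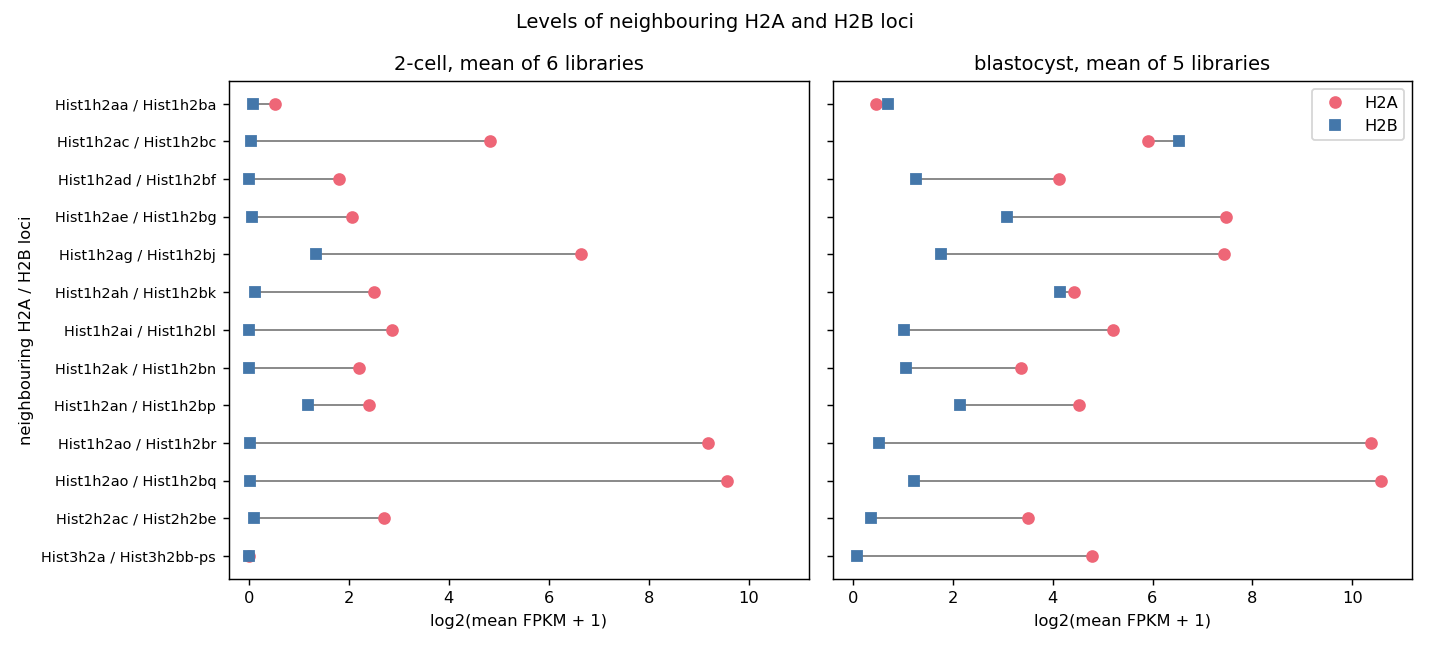
log2(mean FPKM + 1) of neighbouring H2A (circles) and H2B (squares) loci, joined by a line, over the 6 2-cell libraries (left) and the 5 blastocyst libraries (right); the pairs with Hist1h2ap, listed near 0, are left out. H2A lies to the right in most pairs at both stages, and the means of Hist1h2ac and Hist1h2bc trade places in blastocysts.

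Libraries labelled Fzr1-OE held more histone signal than Control, in H2A, H2B, H3 and H4. The H2A sum was 3732, 4006 and 3858 FPKM in Fzr1-OE and 3055 and 2554 in Control, a ratio of 1.38. The H2B sum was 179, 181 and 183 against 98.8 and 74.0, a ratio of 2.09. Within it, Hist1h2bc averaged 122 FPKM in Fzr1-OE (67.2% of the sum) and 46.6 in Control (53.9%). Hist1h2bk, next in level, averaged 15.2 FPKM in Fzr1-OE and 19.3 in Control. The H3 sum was 119, 153 and 114 against 91.4 and 77.8 (ratio 1.52), and the H4 sum 115, 99.5 and 105 against 89.1 and 74.6 (ratio 1.30). In these 4 families each Fzr1-OE library lay above both Control libraries. H1 overlapped, at 67.5, 60.7 and 63.1 FPKM against 66.2 and 54.4 (ratio 1.06).

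Of the 56 histone loci tested, 8 passed as higher and 0 as lower, where 2.29% of the 9439 loci tested passed as higher and 1.92% as lower. They were 4 H2A loci, 3 H2B loci and 1 H3 locus. Groups did not overlap in 29 of the 56 as higher, against 19% of all loci, and in 1 as lower, Hist1h2bk, against 18.4%. By family the 29 were 2 of 5 H1 loci, 14 of 16 H2A, 5 of 14 H2B, 5 of 10 H3 and 3 of 11 H4. The log2 difference was above 0 in 50 of the 56, against 50.7% of all loci, and its median was 0.45 over the 56 and 0.01 over all.

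The H2B gene Hist1h2bc had the smallest p. It stood at 134, 104 and 127 FPKM in Fzr1-OE and 56.1 and 37.1 in Control, and rose by a log2 difference of 1.39 (SE 0.17, limma adjusted p = 0.00229). Hist1h2bg (23663269 to 23663732), also H2B, stood at 9.08, 11.8 and 8.97 FPKM against 3.54 and 4.21, and rose by 1.16 (SE 0.20, limma adjusted p = 0.0146). The groups did not overlap in either gene. Hist3h2ba (chromosome 11, 58762413 to 58762874) stood at 1.75, 2.31 and 2.00 FPKM against 0 and 0, from about 6, 8 and 8 implied fragments, and passed at a limma adjusted p of 0.0127. No fold is given for it, as Control is listed at 0. It reached the filter on low values only through Fzr1-OE, where it is high, so its call is no support for a direction, and 7 of the 8 calls are on loci averaging 1 FPKM or more in both groups.

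Among H2A genes, both Hist1h2ao loci rose. The locus at 21924893 stood at 1689, 1725 and 1712 FPKM in Fzr1-OE and 1342 and 1136 in Control, a log2 difference of 0.47 (SE 0.07, limma adjusted p = 0.00631). The locus at 21902236 stood at 1404, 1547 and 1491 FPKM against 1167 and 1008, a log2 difference of 0.45 (SE 0.07, limma adjusted p = 0.00925). Hist2h2aa1 rose at both of its loci on chromosome 3: at 96043702, from 5.09 and 5.60 FPKM to 11.003, 14.6 and 15.4 (1.20, SE 0.19, limma adjusted p = 0.0102), and at 96049420, from 12.4 and 10.4 to 21.0, 24.0 and 20.6 (0.88, SE 0.15, limma adjusted p = 0.0132). The 2 loci of each symbol share reads.

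The H3 gene Hist2h3b stood at 42.4, 57.4 and 37.7 FPKM in Fzr1-OE and 28.9 and 23.7 in Control, and rose by 0.76 (SE 0.18, limma adjusted p = 0.0452). 12 of the 16 H2A loci tested did not pass, among them Hist1h2ah, Hist3h2a, Hist1h2ae and Hist1h2ak. Hist1h2ah stood at 23.8, 25.8 and 22.9 FPKM against 17.5 and 13.3 (log2 difference 0.63, SE 0.15, limma adjusted p = 0.0525). Hist3h2a stood at 33.0, 23.3 and 43.3 FPKM against 21.2 and 12.2 (0.96, SE 0.27, 0.0845). Hist1h2ae stood at 203, 218 and 172 FPKM against 168 and 121 (0.46, SE 0.14, 0.109). In Hist1h2ak the groups overlapped, at 11.3, 7.65 and 9.25 FPKM against 11.9 and 6.82.

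Among the leading genes of the other families, none passed in H1 or H4. Hist1h1b, the main linker gene, overlapped, at the values given above. The linker genes Hist1h1a (log2 difference 1.01, SE 0.32, limma adjusted p = 0.119) and Hist1h1c (0.71, SE 0.26, 0.168) were higher without overlap. Hist1h1c averaged under 1 FPKM in Control. Hist1h2bk, the H2B gene next in level to Hist1h2bc, stood at 13.8, 18.7 and 13.2 FPKM in Fzr1-OE and 19.8 and 18.8 in Control, a log2 difference of -0.34 (SE 0.17, limma adjusted p = 0.325). Hist1h4d, the main H4 gene, stood at 68.4, 73.3 and 63.6 FPKM against 59.7 and 46.1 (0.37, SE 0.13, limma adjusted p = 0.14).

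**Figure D5:**
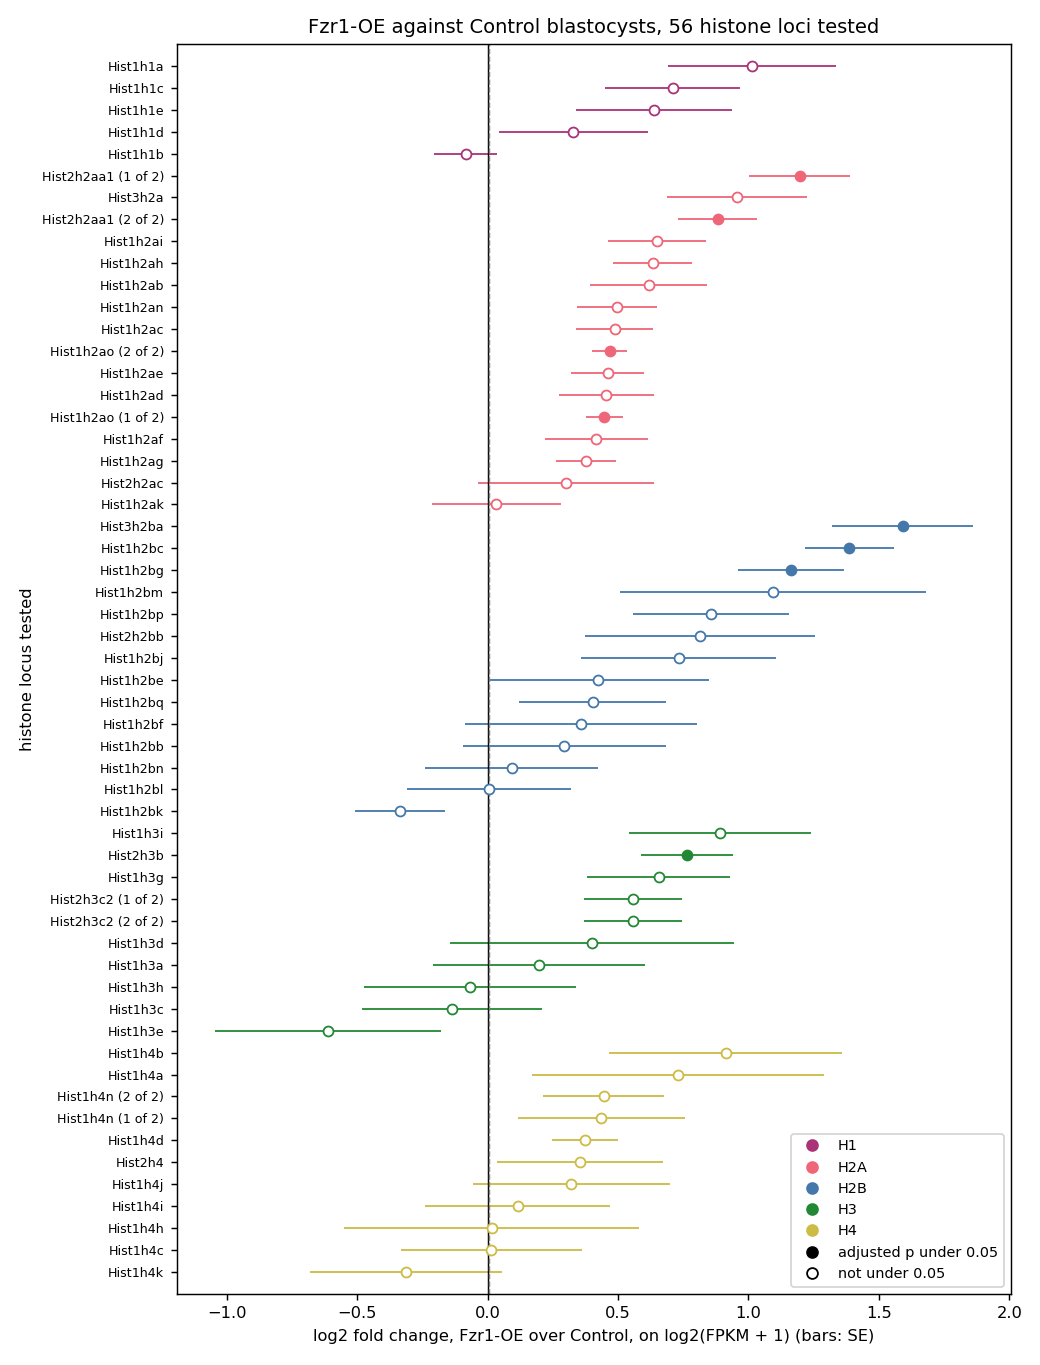
log2 fold change of Fzr1-OE over Control blastocysts on log2(FPKM + 1) (horizontal axis; bars are SE) for the 56 histone loci tested, coloured by family; filled points have a limma adjusted p under 0.05, and the dashed line is the median of all loci tested. 50 of the 56 points lie right of 0. Hist3h2ba, listed at 0 in Control, stands at a fitted value that depends on the pseudocount; Hist1h2bc, at 1.39, and Hist2h2aa1 at 96043702, at 1.20, are the farthest right of the other 7 that passed.

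The number of calls rests on few libraries. Against 8 calls in all libraries, 2 were left (Hist1h2bc and Hist1h2ao at 21924893) once Control replicate 2 was dropped, where 0.435% of all loci tested passed as higher. Dropping Control replicate 1 left 5 calls (0.975% of all loci), and dropping Fzr1-OE replicate 2 left 4 (1.12% of all loci). With no filter on low values no histone locus passed, and 0% of the 16317 loci tested did. With no intensity trend in the variance 1 passed, Hist3h2ba, against 0.318% of all loci. Markers of stage and lineage also differed between the groups. The 14 blastocyst markers summed to 3638 to 3690 FPKM in Fzr1-OE and 5656 to 5708 in Control, with Krt18 and Krt8 as the largest part. The members did not all go that way. Of the 13 blastocyst markers tested, 1 passed as higher (Gata6) and 4 as lower, against 2.29% and 1.92% of all loci. Their median log2 difference was -0.15. Of the 6 2-cell markers tested, 5 passed as higher in Fzr1-OE, against 2.29% of all loci. Only Eif1a averaged 1 FPKM or more in Control, and its groups overlapped. The other 2-cell markers tested reached the filter on low values only through Fzr1-OE. They could only come out higher, so their calls are no support for a direction. The part of these stage and lineage markers in the histone difference was not tested.

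The members outside these expression groups were few. The 3 testis and oocyte type genes, Hist1h1t, Hist1h2aa and Hist1h2ba, stood at no more than 0.348, 2.63 and 0.809 FPKM in any library, and none passed the filter on low values. Hist4h4 stood at 0.925 and 0 FPKM in Control and 1.65, 0.325 and 0 in Fzr1-OE, and at 0 in every 2-cell library. Hist2h4, the H4 gene of the Hist2 cluster, stood at 1.27 and 0.396 FPKM in Control and 0.945, 1.80 and 1.17 in Fzr1-OE.

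Genes that make, process or place histones were tested in the same fits. In Fzr1-OE against Control, 0 of 32 genes of histone transcription and 3′ end processing passed, and 0 of 25 genes of histone mRNA export and decay. Slbp, which binds the stem-loop, stood at 266, 262 and 277 FPKM against 276 and 259 (log2 difference 0.00, SE 0.07, limma adjusted p = 0.99). Npat differed by 0.02 (SE 0.28, limma adjusted p = 0.977). Of 26 chaperones and deposition factors, 4 passed as higher and 0 as lower, where 2.29% and 1.92% of all loci did. Among them was Hat1, which acetylates new H4, at 321, 308 and 312 FPKM against 215 and 225 (0.51, SE 0.07, limma adjusted p = 0.00309). Of 32 DNA replication genes, 1 passed as higher, the ribonucleotide reductase subunit Rrm2 (0.43, SE 0.06, limma adjusted p = 0.00485), and 1 as lower, the thymidine kinase Tk1 (-0.39, SE 0.08, 0.0307). Of 11 replacement variants, 1 passed, H2afy (macroH2A1), which fell by 0.48 (SE 0.09, 0.0167).

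Between stages, 24 of 32 DNA replication genes rose and 2 fell, and 9 of 30 genes of histone transcription and processing rose and 8 fell, where 45.8% of all loci passed as higher and 19.6% as lower. Slbp rose by 0.92 (SE 0.23, limma adjusted p = 0.00721), and Npat fell by 1.84 (SE 0.30, limma adjusted p = 0.000632). Of 11 replacement variants, 7 rose and 3 fell. In the 3 comparisons of 2-cell groups no gene of these lists passed. H2afj, a replacement H2A, stood at 151 and 133 FPKM in WT, 176 and 177 in sIVF and 436 and 402 in IVF, with a log2 difference of IVF over WT of 1.55 (SE 0.18, limma adjusted p = 0.0584).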

How the data were processed

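The authors deposited FPKM tables for the 11 embryo libraries; per the submitters' processing notes, tools included HISAT2 2.1.0, Cufflinks 2.2.1 and Trim Galore 0.6.4, with mm9. Which of them made the tables, and how reads of near-identical copies were divided, is not given in the sources used here. Per the file headers, each FPKM has a lower and an upper bound; fragments per library were derived from them as bounds of 2 SD of a Poisson count, an approximation. Starts were written 1-based.

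Loci averaging 1 FPKM or more over a fit's libraries were tested with limma 3.58.1 (R 4.3.3) on log2(FPKM + 1) with an intensity trend, two-sided, with Benjamini-Hochberg adjustment over all loci. Fits used the 6 2-cell libraries, the 5 blastocyst libraries, or all 11 for stage. A fold change on this scale understates low loci. The procedure was tested on simulated data.

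Named loci were drawn from those passing, or the 10 of smallest p, the leading loci of each family, and the H1, Hist2, Hist3 and Hist4 loci. Not all of these are named in each comparison. Members and lists were chosen with earlier results of these data known. Likeness of pattern to other genes was not computed. Alternatives covered the pseudocount, filter, scaling, variance model, samples, length trend, copies and replicates. The authors' deposited gene ontology tables of fat, with p-values, counts of genes per term, expected values and FDR, were read only for member names. The other samples were not analysed here.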

Additional observations from a re-analysis of the deposited data

How the results depend on the processing

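Directions of the sums over H2A and over all 75 loci held in IVF against WT, sIVF against IVF, Fzr1-OE against Control and the stage comparison under all alternatives run. In sIVF against WT, the log2 ratio of the H2A sum went from 0.34 to -0.11 when the 2 Hist1h2ao loci were left out, an alternative chosen after seeing the data; the cause was not tested. Without them the H2A log2 ratio was 1.18 in IVF against WT and 1.98 between stages. Upper-quartile scaling gave 1.65 (H2A) and 1.61 (all loci) in IVF against WT and 1.46 (H2A) between stages, and sums taken as a percent of all FPKM gave 0.85 (H2A) and 0.95 (all loci) between stages. In IVF against WT the count of loci passing as higher was 0 in the main test and 3 with a filter of 5 FPKM or upper-quartile scaling; with that filter the median of the loci tested was 1.50, as fewer loci were tested. In sIVF against IVF 1 locus passed as lower with that filter. In Fzr1-OE against Control the count passing as higher was 0 with no filter and 1 with no intensity trend, against 8. Between stages the median was 3.42 with a pseudocount of 0.1, 0.97 with no filter, 1.29 with quantile normalization and 0.84 with the length trend removed; 14 then passed as higher and 2 as lower, and 1 as lower (Hist1h3f) with no filter or with only the libraries compared. Counting only loci that average 1 FPKM or more in both groups, chosen after seeing the data, gave 15 higher between stages, against 28, as fewer loci were counted, and 7 in Fzr1-OE against Control, against 8.

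Leaving out 1 library at a time gave 2 to 9 loci higher in Fzr1-OE, log2 ratios of 0.34 to 0.60 for the H2A sum, 0.87 to 1.29 for H2B, -0.05 to 0.23 for H1 and 0.35 to 0.62 for all loci, and in sIVF against IVF -1.35 to -0.91 (H2A) and -1.33 to -0.90 (all loci). Between stages 2 loci passed as lower without WT replicate 1 (both Hist2h2aa1) and 2 without WT replicate 2 (Hist1h2bp and Hist2h2bb), against 0. Hist1h4c in sIVF against IVF was -1.87, 0.11 without IVF replicate 1 and -3.86 without IVF replicate 2. Depth limits the H1, H2B, H3 and H4 loci of the 2-cell stage, where each family had at most 131 implied fragments in a library. Deviations of same-numbered libraries from their group means had r of -0.003 to 0.074 at the 2-cell stage and -0.039 and 0.027 in blastocysts. In a group of 2 libraries the deviations mirror each other, and r runs over many loci. These values therefore cannot exclude a pairing of the numbers. With the replicate block 1 locus passed as higher in Fzr1-OE against Control, against 8, and Fzr1-OE replicate 3, whose number has no Control partner, adds nothing to that contrast.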

Other observations

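Histone genes appear in 1 further deposited table. The authors' deposited gene ontology table of RNA from fat, taken at 4 months of age and set between Fzr1-OE and Control, lists Hist1h1a or Hist1h1b under 31 of its 1605 terms, and the authors' deposited table for methylation in fat lists no histone member under any of 632 terms. In the first table Hist1h1a stands under heparin binding (FDR 1.58e-05) and nuclear euchromatin (FDR 0.306), and Hist1h1b under multicellular organism development (FDR 0.0314). The table gives no direction for either gene.

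Replicates of 1 group differed in how many histone loci were above 0 at the 2-cell stage. WT replicate 1 had 47 histone loci above 0 and WT replicate 2 had 28, with Hist2h2bb at 8.80 and 0 FPKM and Hist1h2bp at 7.33 and 0, and the H2A gene Hist1h2an at 16.9 and 0.681. Likewise, IVF replicate 1 had 47 and IVF replicate 2 had 27, with Hist1h4c at 14.6 and 0 FPKM. In blastocysts the 5 libraries had 71 to 75 histone loci above 0.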
